A study of Mus musculus with 4 samples.

Results

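The genes described here encode Wnt ligands, their receptors and co-receptors, the R-spondins and their receptors, secreted inhibitors and the TCF/LEF nuclear factors. The set was proposed with earlier results of these data known, and its members were then taken by symbol among protein-coding GENCODE M21 genes, with no threshold on a measured value: every Wnt, Fzd, Sfrp, Dkk and Rspo gene, Lgr4, Lgr5 and Lgr6, and Axin2, Notum, Lef1, Tcf7, Tcf7l1, Tcf7l2, Rnf43, Znrf3, Lrp5, Lrp6 and Wif1. They number 55 of 54532 gene IDs. Total RNA of fetal pancreas from wild-type C57BL/6 mice was sequenced at 4 stages, with a single sample for each. The stages, in embryonic days (E), were E11.5 and E13.5 followed by E15.5 and finally E18.5, and values listed in a row keep that order. The text of the series calls the tissue pancreatic epithelium, and the labels name neither a sort nor a pooling of embryos. All stages share strain and genotype, and no group was treated.

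Wnt proteins are lipid-bearing signals that bind Frizzled receptors together with the co-receptors Lrp5 or Lrp6. In the canonical branch this stabilises beta-catenin, which then works with TCF/LEF factors at target genes. Secreted inhibitors act outside the cell, by binding Wnt proteins, by blocking Lrp5 and Lrp6 or by removing the lipid. R-spondins act through Lgr receptors and hold back Rnf43 and Znrf3, which otherwise clear Frizzled receptors from the surface. In the mouse pancreas the pathway is known for changing roles during development, from patterning of the early bud to growth of the exocrine tissue.

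Levels are the deposited means of FPKM, a read density per exon length and per a depth term, after division by a scaling factor for each stage. The deposited means split into whole reads of 2 libraries per stage, which held 1.37e+07 to 1.80e+07 estimated reads each. A value after ± is the SD of these libraries (n = 2). No label says that they came from separate embryos. The SDs reflect how far the 2 libraries of a stage differ. The p-values rest on 1 estimate of spread per gene, shared by the 8 libraries of all stages. Either spread could be technical variation alone. The depth term of FPKM was not the estimated read total of a library. At E11.5 it was 1.85e+07 and 1.81e+07, beside 1.67e+07 and 1.63e+07 estimated reads. At E15.5 it was 1.25e+07 and 1.09e+07, beside 1.58e+07 and 1.37e+07 estimated reads. It was also above the estimated reads at E13.5 and below them at E18.5. Whether the deposited values were already normalised between stages, or the read estimate was off, was not tested. Differences between stages are on the log2(scaled FPKM + 1) scale, on which changes of genes at low levels look smaller than they are. A gene was said to have risen or fallen only where limma gave a Benjamini-Hochberg adjusted p below 0.05 among 13589 genes. A separate rule of size, with no test, asked for a difference of 1 or more with the higher stage at 5 or more.

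Markers were used to check the labelled tissue. Summed over 5 genes of pancreatic progenitors (Pdx1, Ptf1a, Sox9, Nkx6-1 and Foxa2), the level was 57.0, 334, 306 and 329. The E11.5 sample stood apart, since Pdx1, a factor that defines the pancreatic bud, was at 2.93 ± 0.501 there and between 60.6 and 79.0 later. It also carried transcripts of other tissues. The 16 mesenchyme markers summed to 262 at E11.5 and to between 51.5 and 87.5 later, and 15 of them were at 1 or more at E11.5 against 4 to 10 later. For 10 markers of neurons, neural crest and glia the sum was 720 at E11.5 and 24.6 to 48.8 later. The 7 mesothelial markers summed to 35.5 at E11.5 and 0.996 to 3.59 later, and 7 otic markers to 1261, of which Oc90 gave 1251, against 0.112 to 0.477. The 6 erythroid markers summed to 8296 at E11.5 and 5.50 to 144 later, and 5 leukocyte markers to 48.9 at E11.5 and 4.67 to 35.7 later. The 6 endothelial markers stayed below 1 in sum at every stage, and Cdh5 had no read at E11.5. The 6 epithelial markers summed to 1114 at E11.5 and to 2693 to 3969 later. Every value at E11.5 below is from a sample with these contents, and their part in the differences between E11.5 and E13.5 was not tested. In bulk samples fewer cells of a type and less RNA per cell cannot be told apart. Reads of Xist and of 4 Y-linked genes both occurred in each library of E11.5, E13.5 and E18.5. The Y-linked reads numbered 387 and 381 in the E15.5 libraries and 1305 to 1665 per library at the other stages. Xist was not split at E15.5, and the part of the sex of the embryos was not tested.

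**Figure D1:**
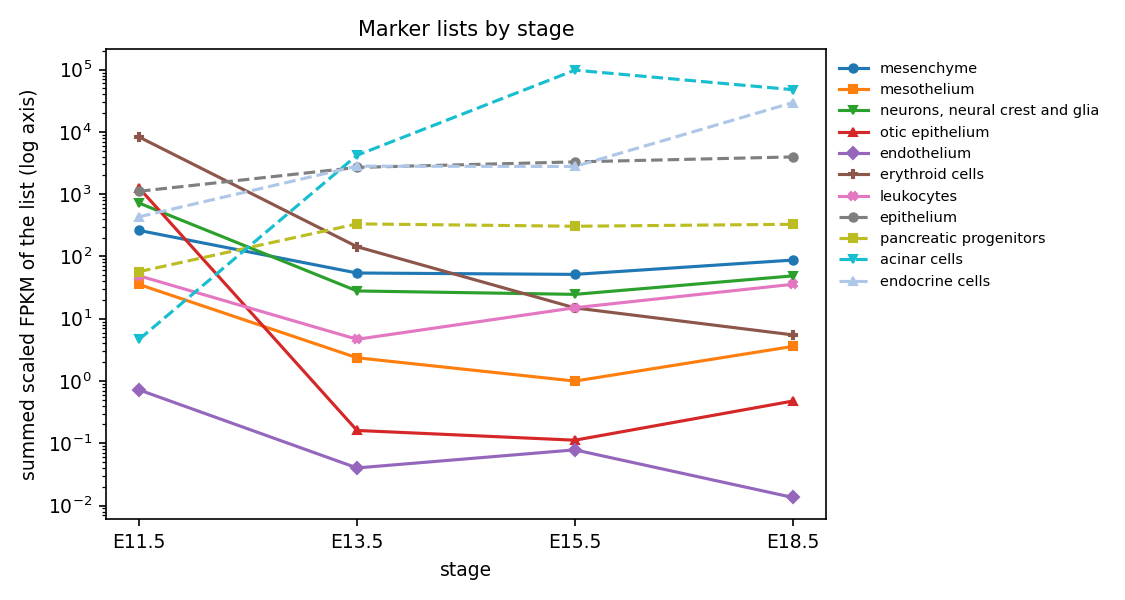
Summed scaled FPKM of 11 marker lists (log axis) at the 4 stages, with solid lines for tissues other than the pancreatic epithelium and dashed lines for epithelial and pancreatic cells. The E11.5 sample holds the highest sums of the 7 solid lists, such as 1261 for otic epithelium, and the lowest of the 4 dashed ones.

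Of the 55 members, 36 reached 1 scaled FPKM in at least 1 stage and 19 reached 5. The other 19 stayed below 1 in every stage, with maxima from 0.0248 for Wnt8b to 0.971 for Wnt9a. By stage, 29, 22, 22 and 21 members were at 1 or more. The matching count of all genes was not worked out, so nothing is read from this. Members listed at 0 numbered 1, 3, 8 and 7 at the successive stages. Of 54495 gene IDs with a GENCODE symbol, 28944, 29347, 30070 and 29652 were listed at 0, also most at E15.5. Among the 36, 22, 4, 6 and 4 had their highest level at the respective stage. Of all 14841 genes at 1 or more in some stage, the corresponding shares were 35.6%, 10.5%, 26.6% and 27.3%. With all stages set to the same total, 26 of the 36 members were highest at E11.5. The share of all genes was not worked out under that setting, so nothing is read from this count.

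Between E11.5 and E13.5 the ligands Wnt4, Wnt6 and Wnt2, the inhibitors Sfrp1 and Sfrp2, and Rspo1 and Rspo2 fell, and Wnt7b, Notum, Rnf43, Lgr4 and Tcf7l2 rose. By limma 20 of 36 members fell and 9 rose, where 37.2% of all genes tested fell and 30.7% rose. By the rule of size 7 were lower and 1 was higher, where 5.73% of all genes measured were lower and 5.77% higher. The members' median difference was -0.56, against -0.03 over all genes measured. A member entered the test through its highest stage, so these counts describe the set and nothing is read from them. All 29 calls held when any library was left out. The E11.5 sample held transcripts of the other tissues given above, and their part in these differences was not tested.

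From E13.5 to E15.5, Wnt7b and Sfrp5 fell furthest, and Notum, Fzd4 and Lrp6 rose, of which Lrp6 did not pass with all stages set to the same total (0.03, adjusted p = 0.648). Limma called 9 members lower and 7 higher, beside 26.8% and 28.4% of all genes. With the same total it called 20 lower and 2 higher of 38 tested, where 68.2% of all genes were called in either direction. That share was not separated by direction. By the rule of size 2 were lower and 0 higher, beside 1.48% and 3.64% of all genes. The members' median difference was -0.03, and that of all genes 0. Of these limma calls 6 falls and 3 rises held whichever library was left out. Between these stages the 6 acinar markers went from 4215 to 98370 in sum, and their part in these results was not tested.

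From E15.5 to E18.5, Wnt4, Sfrp5, Rspo4 and Fzd9 rose by 1 or more on the log2 scale and Notum fell by 2.70. Here 12 members rose and 11 fell by limma, where 38.5% of all genes rose and 29.7% fell. The rule of size took 2 members as higher and 1 as lower, where the shares of all genes were 6.29% and 5.55%. When each library was left out in turn, 10 of the rises and 9 of the falls held in every fit. Between the same stages the mesenchyme markers went from 51.5 to 87.5, the neural list from 24.6 to 48.8, the leukocyte list from 15.02 to 35.7, the mesothelial list from 0.996 to 3.59, and the 7 endocrine markers from 2789 to 29620, while the 6 acinar markers went from 98370 to 47690. Their part in these results was not tested. Among the mesenchyme markers, Dcn went from 3.04 to 14.7, Lum from 2.14 to 11.4 and Twist1 from 0.202 to 0.528, while Pdgfrb went from 2.96 to 0.349 and Nkx3-2 from 0.407 to no read. In the neural list 5 markers were tested, of which 1 rose and 2 fell by limma, so its higher sum was not shared by all of them.

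Across the longer span from E13.5 to E18.5, which shares samples with both of the preceding comparisons, 6 members rose and 10 fell by limma, beside 36.1% and 23.7% of all genes. The rule of size took 2 as higher and 3 as lower, beside 5.34% and 3.0% of all genes. All 6 rises and 9 of the 10 falls held with any library left out, and the exception was Rnf43.

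The 4 members that rose by 1 or more from E15.5 to E18.5 were Wnt4, Sfrp5, Rspo4 and Fzd9, and their promoters are shown because they rose at the same step. A RefSeq promoter (GRCm38.p6) was at hand for 36 of 55 members, and for all 4 of these. The 250 bases before each RefSeq start were searched on both strands for the GC box GGGCGG and for the TCF/LEF motif CTTTGAT, so a GC box may read CCGCCC here. Matches are in capitals, and the bases given end where the GENCODE transcript begins, which leaves 104 bases for Wnt4, with 5 of its 8 GC boxes, and 67 for Fzd9, with 0 of 1. The sequences run 5′ to 3′ on the strand of the gene and cover chr4:137277385-137277488 (plus), chr19:42202253-42202502 (minus), chr2:151842677-151842926 (plus) and chr5:135251231-135251297 (minus).
Wnt4: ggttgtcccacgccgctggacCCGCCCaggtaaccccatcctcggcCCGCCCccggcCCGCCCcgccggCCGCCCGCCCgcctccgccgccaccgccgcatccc
Sfrp5: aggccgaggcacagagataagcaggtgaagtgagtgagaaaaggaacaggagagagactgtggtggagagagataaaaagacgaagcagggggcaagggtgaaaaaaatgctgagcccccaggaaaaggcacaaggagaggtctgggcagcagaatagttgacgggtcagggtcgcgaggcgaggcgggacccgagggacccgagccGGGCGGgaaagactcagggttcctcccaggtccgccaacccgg
Rspo4: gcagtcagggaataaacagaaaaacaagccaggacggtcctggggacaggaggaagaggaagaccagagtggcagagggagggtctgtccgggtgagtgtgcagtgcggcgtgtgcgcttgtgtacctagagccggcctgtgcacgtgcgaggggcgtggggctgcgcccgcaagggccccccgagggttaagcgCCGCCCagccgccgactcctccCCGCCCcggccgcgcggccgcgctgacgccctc
Fzd9: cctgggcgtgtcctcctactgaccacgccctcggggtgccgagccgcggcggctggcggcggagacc

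Over the full 250 bases the GC box occurred 8 times for Wnt4, with 2 of the matches overlapping each other, 2 times for Rspo4 and 1 time each for Sfrp5 and Fzd9. It was held by 32.7% of the 32851 promoters of the same length. The letters CTTTGAT were in none of the 4 windows and in 3.21% of all promoters. The G and C share was 85.2% for Wnt4, 76.4% for Fzd9, 69.6% for Rspo4 and 59.6% for Sfrp5, against a median of 52.4%. A match is a description of the letters and not a site, and no match says nothing of binding elsewhere.

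The 19 Wnt ligands together measured 65.0, 19.0, 6.49 and 31.0. The gene that led the sum changed with stage. Wnt4 made up 55.6% at E11.5 and 65.4% at E18.5, and Wnt7b led between them with 69.7% and then 36.2%. Frizzled receptors, by contrast, went from 36.4 through 31.0 and 26.3 to 23.3, and the 10 secreted inhibitors from 103 through 24.7 and 13.9 to 9.63. With all stages set to the same total the Frizzled sum was 20.6 at both E15.5 and E18.5, while the ligand sum was still lowest at E15.5, at 5.07. The inhibitor sum holds only genes in the set, and Sostdc1 alone, an inhibitor outside it, was at 36.6 at E15.5 and 33.2 at E18.5.

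**Figure D2:**
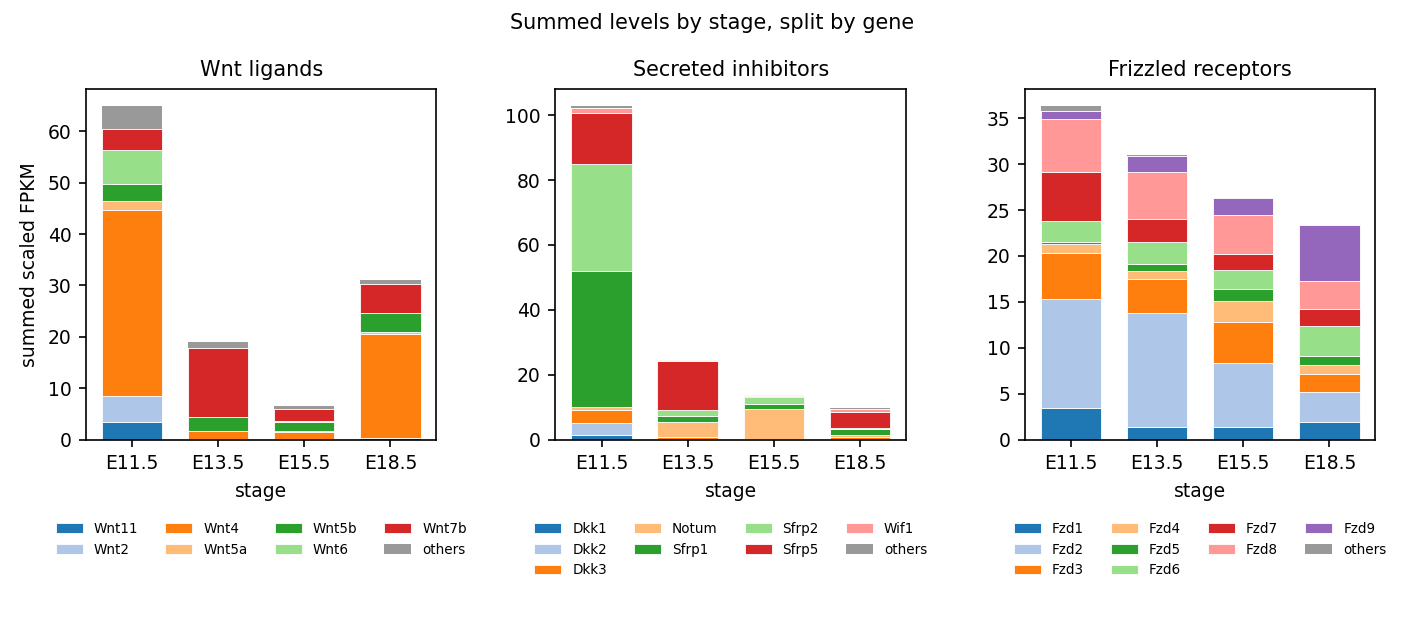
Stacked bars of summed scaled FPKM at each stage for the ligands, the secreted inhibitors and the Frizzled receptors, with 1 colour per gene at 1 or more in any stage and grey for the rest. The ligand bar falls from 65.0 to 6.49 by E15.5 and is 31.0 at E18.5, whereas the bar of the 10 inhibitors in the set, which leaves out Sostdc1 and Frzb, is lowest at E18.5, at 9.63.

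Wnt4, a ligand known for its part in kidney and gonad development, lies at chr4:137277489-137299726 (mm10, plus strand). Its level was 36.1 ± 0.947, 1.52 ± 0.0733, 1.36 ± 0.166 and 20.2 ± 0.0538. The middle stages were low and overlapped each other, with 104 to 126 reads per library at E13.5 and 67 to 69 at E15.5, and both ends were high without overlap. Wnt4 fell by 3.88 from E11.5 to E13.5 (SE 0.0592, adjusted p = 8.80e-08). From E15.5 to E18.5 it rose by 3.17 (SE 0.0592, adjusted p = 9.23e-07), a 14.9-fold difference in level, and the value at E18.5 was 13.3 times that at E13.5. The E13.5 and E15.5 levels did not pass the test (-0.10, adjusted p = 0.207), although without library 2 of E15.5 the adjusted p was 0.0473. With all stages set to the same total, a setting that moved the median difference of all genes between these stages to -0.41, the Wnt4 difference was -0.46 (adjusted p = 4.06e-04).

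Wnt7b, a ligand made by epithelia such as those of lung and pancreas in the mouse, lies at chr15:85535437-85582473 on the minus strand. It was at 4.23 ± 0.278, 13.3 ± 1.17, 2.35 ± 0.326 and 5.63 ± 0.334 at the successive stages. E13.5 was the high point, and the libraries of the 4 stages did not overlap. Wnt7b rose by 1.45 to E13.5 (SE 0.0933, adjusted p = 1.89e-05), fell by 2.09 to E15.5 (adjusted p = 1.72e-05) and rose by 0.98 to E18.5 (adjusted p = 1.36e-04). An antisense gene, AU022754, shares 6.61% of the exon bases of Wnt7b and was at 0.241 to 0.784. No source states whether counting used strand, so reads in the shared part are uncertain.

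Wnt6 and Wnt2, the second of which takes part in specifying the lung from the foregut, had nearly all of their reads at E11.5. Wnt6 was at 6.53 ± 0.158 there, from 267 and 252 reads, and no read of it was counted in either E13.5 library, at least a 172-fold lower level by a floor of 3 reads over both. At E15.5 and E18.5 it had 4 reads each. Wnt2 was at 5.13 ± 0.241 at E11.5, from 205 and 214 reads, and had 1, 0 and 4 reads at the later stages. On the log2 scale Wnt6 fell by 2.91 (SE 0.0666, adjusted p = 2.81e-07) and Wnt2 by 2.60 (SE 0.0700, adjusted p = 5.06e-07) from E11.5 to E13.5. No difference between the later stages passed the test, but with a pseudocount of 0.1 the Wnt6 differences of E15.5 and E18.5 from E13.5 (0.82, adjusted p = 0.0302, and 0.74, adjusted p = 0.0391) and the Wnt2 difference between E15.5 and E18.5 (0.73, adjusted p = 0.0483) did, each from 0 to 4 reads.

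The remaining ligands at 1 or more, Wnt5b, Wnt11 and Wnt5a, stayed below 5. Wnt5b was at 3.41 ± 0.263, 2.80 ± 0.452, 1.83 ± 0.230 and 3.58 ± 0.282, a modest dip at E15.5. The rise to E18.5 (0.69, SE 0.108, adjusted p = 0.00134) held with any library left out, but the fall to E15.5 (-0.43, adjusted p = 0.0157) was lost without library 2 of E13.5 or library 1 of E15.5 (adjusted p = 0.0807 and 0.0818). Wnt11 and Wnt5a, which are ligands mostly tied to beta-catenin-independent signalling, were highest at E11.5. Wnt11 was at 3.34 ± 0.471 there and 0.0729 to 0.217 later. Wnt5a was at 1.73 ± 0.181, 0.0775 ± 0.0133, 0.135 ± 0.0615 and 0.459 ± 0.0862. It fell by 1.34 to E13.5 (adjusted p = 1.78e-05) and rose by 0.36 from E15.5 to E18.5 (adjusted p = 0.00866), and the libraries of E18.5 lay above those of E15.5. The remaining 12 ligands, among them Wnt3a, Wnt9a and Wnt1, were under 1 throughout and were not tested.

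**Figure D3:**
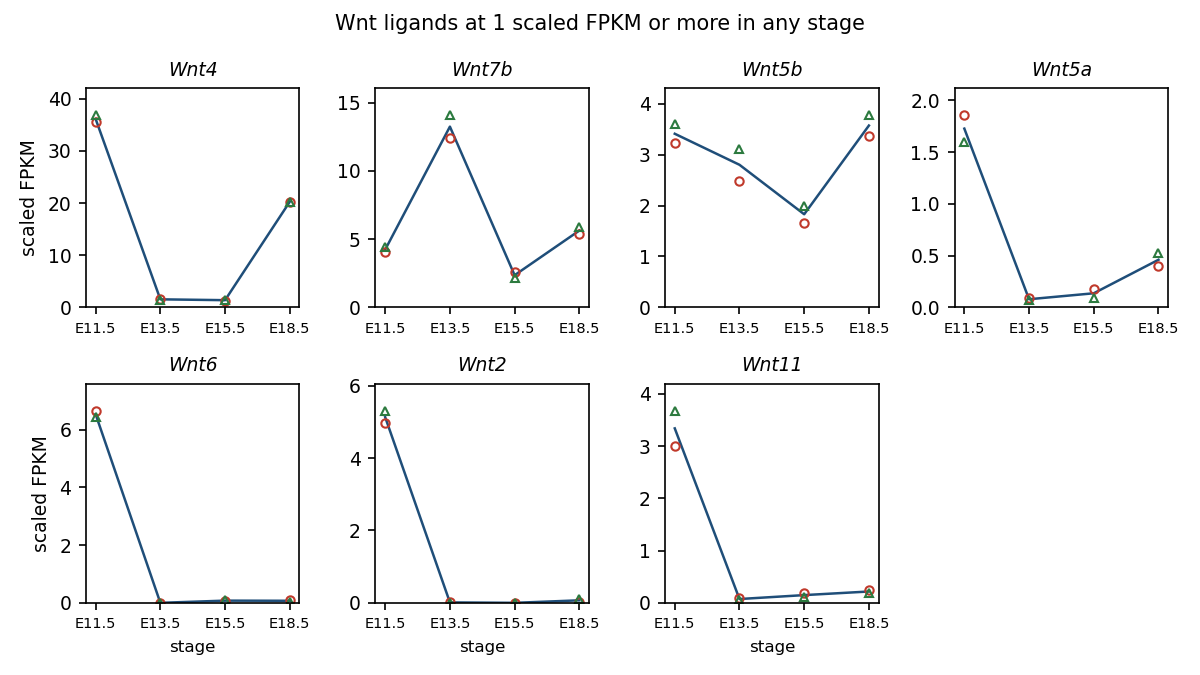
Scaled FPKM of the 7 ligands at 1 or more in any stage, by stage, with the line at the stage level, circles for library 1 and triangles for library 2, each panel on its own axis from 0. Wnt4 is high at E11.5 and E18.5, at 36.1 and 20.2, Wnt7b peaks at E13.5, at 13.3, and Wnt6, Wnt2 and Wnt11 are near 0 after E11.5.

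Release of Wnt proteins needs Porcn, which adds the lipid, and Wls, which carries them to the surface. Porcn was at 9.76 ± 0.215 at E11.5 and at 2.45 ± 0.188, 2.64 ± 0.223 and 3.66 ± 0.0799 later. Wls was at 12.6 ± 0.0811, 4.11 ± 0.261, 5.08 ± 0.0869 and 10.2 ± 0.381. Both fell from E11.5 to E13.5 (Porcn by 1.64, adjusted p = 2.57e-06, and Wls by 1.41, adjusted p = 1.71e-06), and both rose from E15.5 to E18.5 (0.36, adjusted p = 0.00306, and 0.88, adjusted p = 1.78e-05). Both were highest at E11.5. Their E13.5 and E15.5 levels could not be ranked, since Porcn did not pass between them (0.08, adjusted p = 0.379) and with all stages set to the same total both were lower at E15.5 (Porcn -0.37, adjusted p = 0.00231, and Wls -0.26, adjusted p = 0.00401).

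Among the secreted inhibitors, Sfrp1 and Sfrp2, which bind Wnt proteins, were the most abundant members at E11.5 together with Wnt4. Sfrp1 was at 42.0 ± 1.66 there and at 1.77 ± 0.0286, 1.62 ± 0.111 and 1.71 ± 0.133 afterwards. It fell by 3.96 to E13.5 (SE 0.0616, adjusted p = 9.19e-08), and the E18.5 libraries overlapped those of E13.5 and E15.5. No later difference passed the test, but with all stages set to the same total the E15.5 level was below that of E13.5 (-0.47, adjusted p = 4.95e-04). Sfrp2 was at 32.8 ± 0.414, 2.14 ± 0.00462, 1.98 ± 0.501 and 0.526 ± 0.0274. It fell by 3.43 to E13.5 (SE 0.108, adjusted p = 9.02e-07) and by a further 0.96 from E15.5 to E18.5 (adjusted p = 3.04e-04). Antisense Gm26771 shares 16.1% of the exon bases of Sfrp2 and was at 0.280 at E11.5 and at most 0.0483 later.

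Sfrp5, an inhibitor of the same family known from embryonic foregut endoderm, was high at E11.5 and E13.5 and low at E15.5. It lies at chr19:42197971-42202252 on the minus strand. Its levels were 15.9 ± 0.0808, 15.02 ± 0.133, 0.545 ± 0.0375 and 4.67 ± 0.684, from 553 and 544 reads at E11.5 and 14 and 11 at E15.5. The E15.5 libraries were far below those of every other stage. Sfrp5 fell by 3.37 from E13.5 to E15.5 (SE 0.0811, adjusted p = 3.30e-06), 27.5-fold in level, and rose by 1.87 to E18.5 (adjusted p = 5.78e-06). The difference between E11.5 and E13.5 was -0.08 (adjusted p = 0.408), and with all stages set to the same total it was -0.21 (adjusted p = 0.0472).

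Notum, the enzyme that removes the lipid from Wnt proteins, was highest where Sfrp5 was lowest. Located at chr11:120653788-120661175 on the minus strand, it was at 0.918 ± 0.0477, 4.44 ± 0.330, 9.18 ± 0.908 and 0.567 ± 0.204. E15.5 was highest and E18.5 lowest, and no stage's libraries overlapped those of another. Notum rose by 1.504 to E13.5 (SE 0.110, adjusted p = 3.43e-05) and by 0.91 to E15.5 (adjusted p = 7.17e-04). It then fell by 2.70 to E18.5 (adjusted p = 4.79e-06), 16.2-fold in level. Antisense Notumos shares 29.4% of the exon bases of Notum and was at 0.0147 to 0.261, and Myadml2os shares 8.72% and was at most 0.138, so the reads of the shared part are uncertain. In all, 11 members shared exon bases with another gene, and the partners of members other than Notum, Sfrp2 and Wnt7b were at most 0.217.

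The Dickkopf genes and Wif1 were lower. Dkk2, which like Dkk1 acts on Lrp5 and Lrp6, was at 3.66 ± 0.0549 at E11.5 and at most 0.185 later, and Dkk1 was at 1.47 ± 0.249 and then at most 0.0891. Both fell from E11.5 to E13.5 (-2.10, adjusted p = 2.57e-06, and -1.18, adjusted p = 4.29e-05). Dkk3 was at 3.96 ± 0.426, 0.743 ± 0.0287, 0.0480 ± 0.0302 and 0.756 ± 0.0189. It fell to E13.5 (-1.51, adjusted p = 7.51e-06) and to E15.5 (-0.73, adjusted p = 4.26e-04) and rose to E18.5 (0.74, adjusted p = 2.27e-04), from 4 reads over both E15.5 libraries to 65. Wif1, which binds Wnt proteins, was at 1.59 ± 0.123, 0.338 ± 0.143, 0.297 ± 0.103 and 1.16 ± 0.315, and rose to E18.5 (0.73, adjusted p = 0.00258). Of 8 inhibitors tested from E15.5 to E18.5, 3 rose (Sfrp5, Dkk3 and Wif1), 2 fell (Notum and Sfrp2) and 3 did not pass, near the 38.5% and 29.7% of all genes that rose and fell. Sfrp4 and Dkk4 were under 1 throughout.

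Rspo1, Rspo2 and Rspo3 were E11.5 transcripts. Rspo1 was at 6.34 ± 0.317, from 233 and 212 reads, and had 3, 11 and 4 reads at the later stages. Rspo2 was at 5.81 ± 0.265, from 527 and 549 reads, and had 2, 0 and 2 reads later. Rspo3 was at 2.30 ± 0.253 at E11.5 and at most 0.231 later. All 3 fell from E11.5 to E13.5, with log2 differences of -2.81, -2.75 and -1.56 (adjusted p = 1.11e-06, 3.29e-07 and 7.19e-06). The fall of Rspo3 from E15.5 to E18.5 (-0.23, adjusted p = 0.0426) was lost in 6 of 8 fits with a library left out, those without an E13.5, E15.5 or E18.5 library, with adjusted p from 0.0640 to 0.143. Rspo4 behaved differently, at 0.302 ± 0.127, 1.65 ± 0.105, 0.589 ± 0.139 and 3.10 ± 0.316. E18.5 was highest and E13.5 second, without overlap between these and the other stages. Rspo4 rose to E13.5 (1.02, SE 0.107, adjusted p = 1.78e-04), fell to E15.5 (-0.74, adjusted p = 0.00148) and rose to E18.5 (1.36, adjusted p = 5.78e-05). It made up 90.6% of the R-spondin sum at E13.5 and 95.5% at E18.5, though that sum was 1.82 and 3.24 against 14.8 at E11.5.

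**Figure D4:**
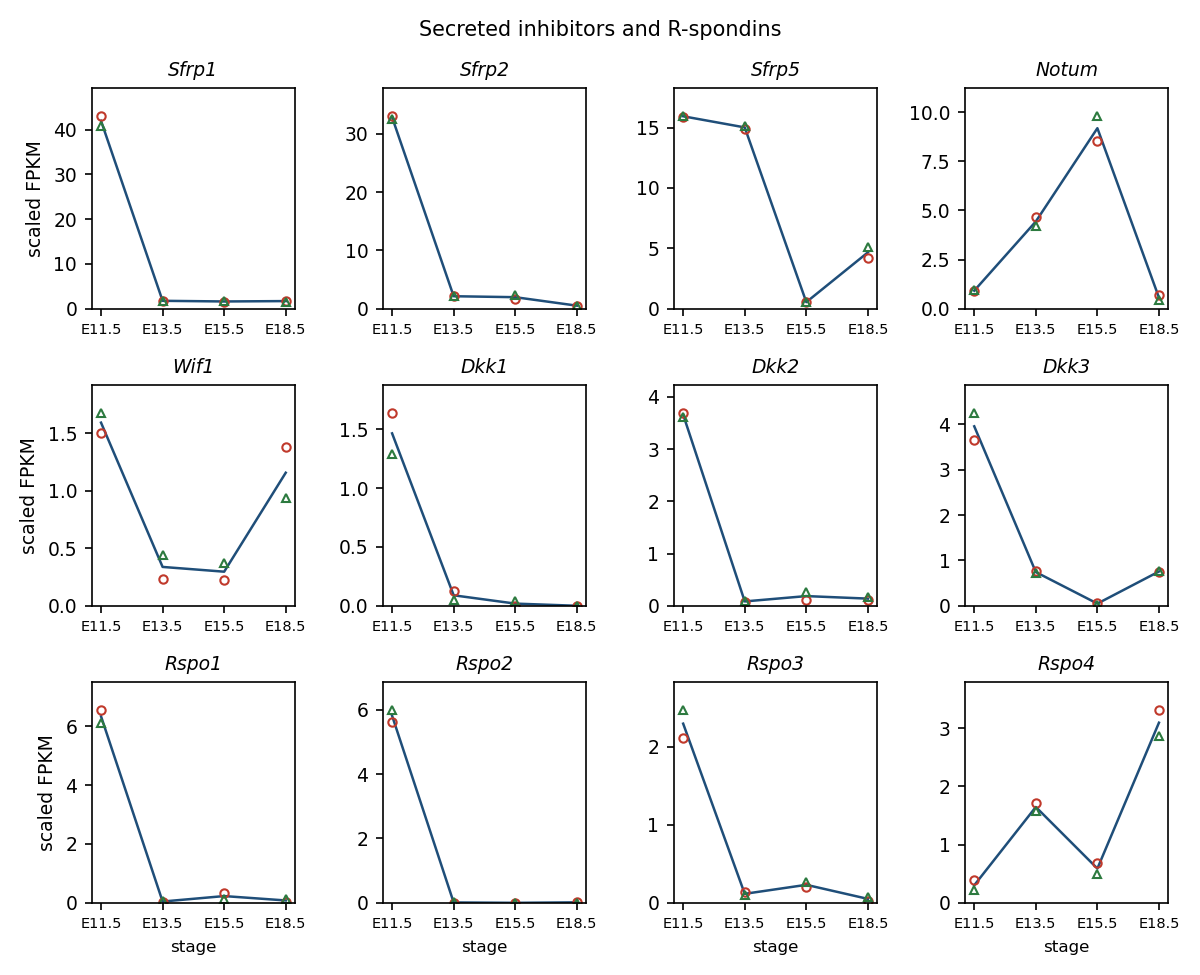
Scaled FPKM of 8 secreted inhibitors and the 4 R-spondins by stage, with the line at the stage level, circles for library 1 and triangles for library 2, each panel on its own axis from 0. Sfrp1, Sfrp2, Dkk1, Dkk2 and Rspo1 to Rspo3 are high only at E11.5 among the 4 stages, Notum peaks at E15.5, at 9.18, where Sfrp5 is lowest, at 0.545, and Rspo4 is highest at E18.5, at 3.10.

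The R-spondin receptor Lgr4 was at 1.30 ± 0.131, 3.88 ± 0.419, 5.64 ± 0.512 and 3.05 ± 0.395, highest at E15.5. It rose by 1.09 to E13.5 (SE 0.104, adjusted p = 1.22e-04) and fell by 0.71 from E15.5 to E18.5 (adjusted p = 9.81e-04). The rise to E15.5 (0.44, adjusted p = 0.0112) was lost without library 1 of E13.5 or library 2 of E15.5 (adjusted p = 0.0638 and 0.0643) and turned to -0.07 with all stages set to the same total. Lgr5 and Lgr6, the other receptors of R-spondins, were at most 0.409 and 0.141, both at E11.5. Of the 2 ligases that clear Frizzled receptors, Rnf43 was at 0.703 ± 0.00614, 3.04 ± 0.0757, 2.46 ± 0.0972 and 2.51 ± 0.0507, and Znrf3 at 0.945 ± 0.0256, 1.59 ± 0.0251, 2.096 ± 0.123 and 1.56 ± 0.110. Both were lowest at E11.5, and both rose to E13.5, Rnf43 by 1.25 (adjusted p = 4.29e-06) and Znrf3 by 0.42 (adjusted p = 0.00140). Their E13.5 to E15.5 calls, -0.22 for Rnf43 (adjusted p = 0.0160) and 0.26 for Znrf3 (adjusted p = 0.0164), were each lost without either E13.5 library or library 1 of E15.5, with adjusted p up to 0.0780 and 0.0729, and that of Znrf3 turned to -0.15 with all stages set to the same total. The fall of Rnf43 from E13.5 to E18.5 (-0.20, adjusted p = 0.0205) was lost without any of the 4 libraries of those stages (adjusted p from 0.0532 to 0.0956).

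Among Frizzled receptors the most abundant was Fzd2 at the stages up to E15.5 and Fzd9 at E18.5. Of 9 tested, 3 rose and 4 fell from E15.5 to E18.5, beside 38.5% and 29.7% of all genes. Fzd2 was at 11.8 ± 0.260, 12.4 ± 0.152, 6.96 ± 0.128 and 3.25 ± 0.336. It fell by 0.75 to E15.5 (SE 0.0605, adjusted p = 1.36e-04) and by 0.90 to E18.5 (adjusted p = 2.92e-05), and the libraries of E15.5 and E18.5 overlapped with no other stage. Its E11.5 and E13.5 levels did not differ past the test (0.07, adjusted p = 0.334; -0.06 with all stages set to the same total). Fzd9, at chr5:135248938-135251230 on the minus strand, was at 0.913 ± 0.189, 1.78 ± 0.0330, 1.83 ± 0.0967 and 6.08 ± 0.0923. The E18.5 libraries, with 177 and 180 reads, stood above all others. Fzd9 rose by 0.54 to E13.5 (adjusted p = 0.00101) and by 1.32 from E15.5 to E18.5 (SE 0.0802, adjusted p = 1.95e-05), and made up 26.1% of the Frizzled sum at E18.5, ahead of Fzd6 at 14.2% and Fzd2 at 13.9%.

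Fzd7 was at 5.26 ± 0.119 at E11.5 and at 2.48 ± 0.537, 1.81 ± 0.210 and 1.81 ± 0.0671 afterwards, a fall of 0.85 to E13.5 (adjusted p = 5.47e-04). Fzd8 was at 5.77 ± 0.102, 5.13 ± 0.0923, 4.25 ± 0.325 and 3.05 ± 0.171, and its first step did not pass the test (-0.14, adjusted p = 0.0814). With all stages set to the same total Fzd8 was lower at E13.5 than at E11.5 (-0.27, adjusted p = 0.00669). Its fall from E15.5 to E18.5 (-0.38, adjusted p = 0.00182) held, whereas that from E13.5 to E15.5 (-0.22, adjusted p = 0.0217) was lost without either E13.5 library or library 2 of E15.5 (adjusted p from 0.0660 to 0.0948). Fzd3 was at 5.05 ± 0.196, 3.67 ± 0.155, 4.49 ± 0.111 and 2.05 ± 0.179. It fell to E13.5 (-0.37, adjusted p = 0.00199) and from E15.5 to E18.5 (-0.85, adjusted p = 4.89e-05). Its rise between (0.23, adjusted p = 0.0209) was lost without library 2 of E13.5 or either E15.5 library (adjusted p from 0.0526 to 0.105), and with all stages set to the same total it was a fall of 0.27 (adjusted p = 0.00835).

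The other measured Frizzled genes, Fzd1, Fzd4, Fzd5 and Fzd6, had maxima of 3.49, 2.26, 1.24 and 3.31. Fzd4 was highest at E15.5, to which it rose by 0.83 (adjusted p = 2.30e-04), and Fzd6 was highest at E18.5, to which it rose by 0.48 (adjusted p = 7.34e-04). With all stages set to the same total Fzd6 did not differ past the test between E13.5 and E18.5 (0.0, adjusted p = 0.991). Fzd1 fell from E11.5 to E13.5 (-0.89, adjusted p = 2.36e-04), and its rise to E18.5 (0.26, adjusted p = 0.0495) was lost in 7 of 8 fits with a library left out, all but the one without library 2 of E15.5 (adjusted p from 0.0645 to 0.224). Fzd5 rose to E13.5 (0.53, adjusted p = 0.00218), and its rise to E15.5 (0.32, adjusted p = 0.0259) was lost without library 2 of E13.5 or of E15.5 (adjusted p = 0.126 and 0.113). Fzd10 was at 0.577 at E11.5 and had at most 1 read per stage afterwards. The co-receptor Lrp6 was at 3.45 ± 0.0396, 3.16 ± 0.0695, 5.01 ± 0.121 and 3.46 ± 0.0922, with E15.5 apart from the rest. It rose by 0.53 to E15.5 (SE 0.0499, adjusted p = 2.48e-04), which was 0.03 with all stages set to the same total (adjusted p = 0.648), and fell by 0.43 to E18.5 (adjusted p = 3.44e-04). Its relative Lrp5 was between 0.322 and 0.386 at every stage.

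Levels of the TCF/LEF factors differed in order as well as in size. Tcf7l1, which acts mainly as a repressor without beta-catenin, was the most abundant at every stage, at 15.01 ± 0.171, 11.8 ± 0.249, 6.43 ± 0.143 and 7.09 ± 0.122. It fell to E13.5 (-0.32, adjusted p = 3.94e-04) and to E15.5 (-0.78, SE 0.0397, adjusted p = 2.64e-05). Its rise to E18.5 (0.12, adjusted p = 0.0300) was lost without library 1 of E15.5 or either E18.5 library (adjusted p from 0.0556 to 0.110), and was 0.04 with no scaling (adjusted p = 0.390). Tcf7l2 was at 3.19 ± 0.339, 5.94 ± 0.0651, 5.52 ± 0.652 and 5.40 ± 0.0833. It rose by 0.73 to E13.5 (SE 0.0853, adjusted p = 3.12e-04), and no later difference passed the test. With all stages set to the same total its E15.5 level was below that of E13.5 (-0.63, adjusted p = 6.74e-04). Tcf7 was at 4.48 ± 0.0450, 2.29 ± 0.499, 1.65 ± 0.0330 and 1.10 ± 0.130, and fell to E13.5 (-0.74, adjusted p = 9.03e-04), while the step to E15.5 did not pass (-0.31, adjusted p = 0.0529). Its fall from E15.5 to E18.5 (-0.33, adjusted p = 0.0300) was lost in 6 of 8 fits with a library left out, all but those without an E13.5 library (adjusted p from 0.0505 to 0.137), while that from E13.5 to E18.5 (-0.65, adjusted p = 0.00244) held. Lef1 was at 1.04 ± 0.0929 at E11.5, from 157 and 174 reads, and had 3, 6 and 10 reads later.

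**Figure D5:**
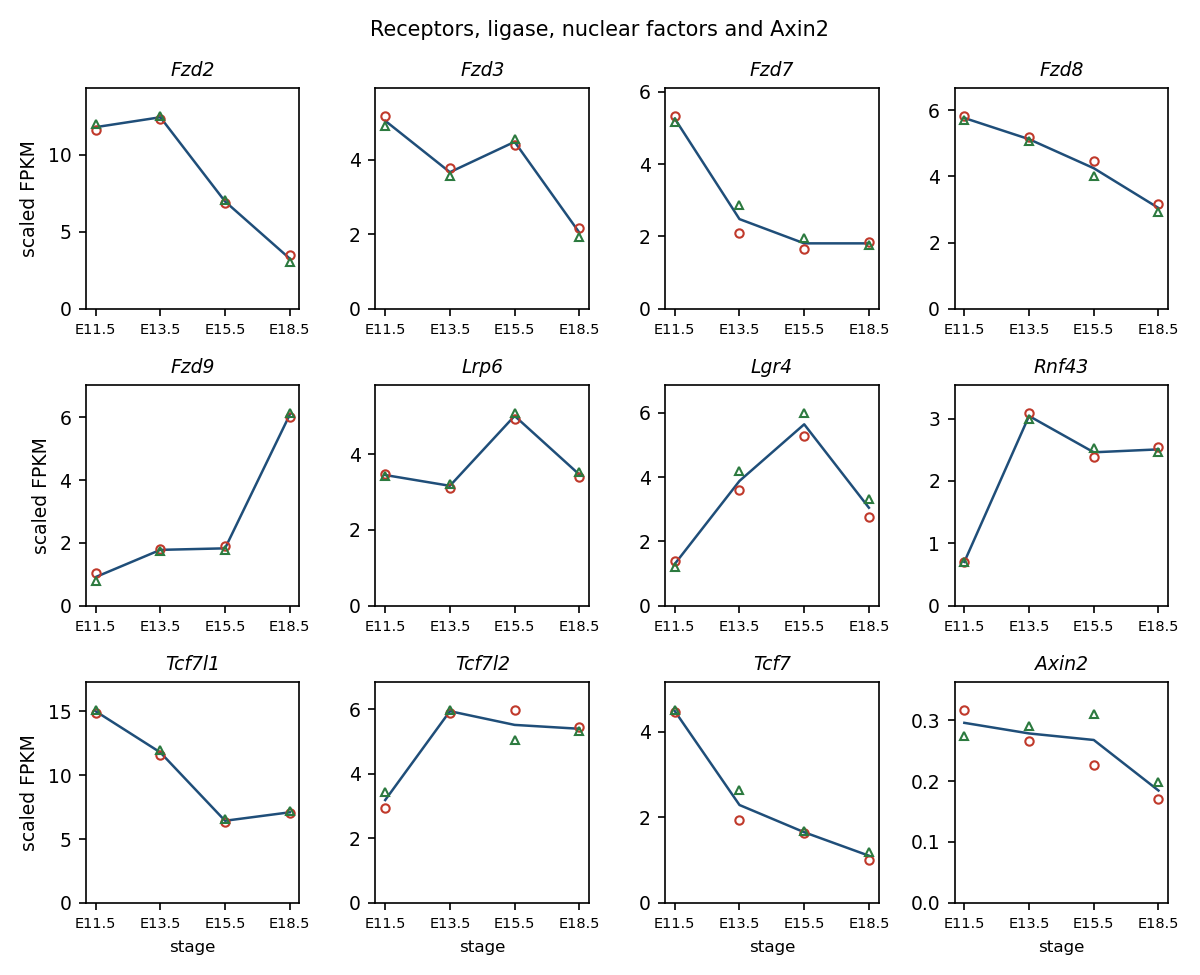
Scaled FPKM of 12 receptors, ligases, nuclear factors and Axin2 by stage, with the line at the stage level, circles for library 1 and triangles for library 2, each panel on its own axis from 0. Fzd2 falls from 12.4 at E13.5 to 3.25 at E18.5, and Fzd9 reaches 6.08 at E18.5. On this scaling Lgr4 and Lrp6 are highest at E15.5, but with all stages set to the same total neither rose from E13.5 by limma. Axin2 is at most 0.317 in all 8 libraries.

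Axin2, a scaffold protein and a commonly read target of beta-catenin, was at 0.296 ± 0.0305, 0.278 ± 0.0172, 0.267 ± 0.0592 and 0.184 ± 0.0207, from 26 to 59 reads per stage. It was below the level required for the test. The libraries of E11.5, E13.5 and E15.5 overlapped, and those of E18.5 lay below all of them. Among 17 reported beta-catenin target genes, 12 were measured and tested. From E13.5 to E15.5, 2 of them rose and 7 fell, where 28.4% and 26.8% of all genes did, and from E15.5 to E18.5, 6 rose and 4 fell, where 38.5% and 29.7% did, with median differences of -0.22 and 0.23, against 0 and 0.04 over all genes measured. Tnfrsf19, a receptor of the tumour necrosis factor family, was at 3.66, 2.22, 1.95 and 22.0 and rose by 2.96 to E18.5 (SE 0.0671, adjusted p = 1.12e-06). Ascl2, a transcription factor of intestinal stem cells, was at 0.272, 6.22, 10.2 and 4.57, and rose to E13.5 (2.51, adjusted p = 1.52e-06) and fell to E18.5 from E15.5 (-1.01, adjusted p = 1.02e-04). Myc, a growth regulator, was at 10.1, 57.1, 50.3 and 17.9, rose to E13.5 (2.39, adjusted p = 5.54e-07) and fell from E15.5 to E18.5 (-1.44, adjusted p = 6.92e-06). Ascl2 and Myc thus shared the rise to E13.5 and the fall from E15.5 to E18.5, and Tnfrsf19 did not. Between E13.5 and E15.5 the 2 genes differed. Ascl2 rose there by limma, but not with all stages set to the same total (0.08, adjusted p = 0.478). Myc did not pass there, and with the same total it was lower at E15.5 (-0.79, adjusted p = 6.96e-05).

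Outside the family names, the other secreted inhibitors had members as abundant as any above. Sostdc1, which acts on Lrp5, Lrp6 and on BMP proteins, was at 9.56 ± 0.345, 2.103 ± 0.316, 36.6 ± 2.69 and 33.2 ± 0.944. It rose by 3.60 from E13.5 to E15.5 (SE 0.0821, adjusted p = 2.95e-06), the opposite of Sfrp5 between the same samples, and did not differ past the test between E15.5 and E18.5 (-0.14, adjusted p = 0.187; with no scaling -0.23, adjusted p = 0.0467). Frzb, a secreted Frizzled-related protein, was at 3.45, 0.555, 1.31 and 17.8, and rose by 3.03 from E15.5 to E18.5 (SE 0.0610, adjusted p = 9.28e-07), beside the 3.17 of Wnt4. Igfbp4, which also binds insulin-like growth factors, was at 71.9, 36.4, 7.38 and 8.87 and was not tested, because its E11.5 value was not split into libraries. Of 6 such inhibitors tested, 1 rose and 5 fell from E11.5 to E13.5, where 30.7% and 37.2% of all genes did. Over the next step 2 rose and 1 fell, beside 28.4% and 26.8%, and from E15.5 to E18.5 2 rose and 0 fell by limma, beside 38.5% and 29.7%.

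Among co-receptors and surface modulators, 11 were tested, and 4 rose and 3 fell from E15.5 to E18.5, near the 38.5% and 29.7% of all genes. Gpc4, a heparan sulphate proteoglycan, was at 9.11, 3.69, 4.69 and 17.6 and rose by 1.71 to E18.5 (adjusted p = 2.85e-06). Gpc3, of the same family, was at 230, 335, 221 and 75.5, without a test. Shisa2, which holds Frizzled receptors back inside the cell, was at 16.8, 8.63, 2.58 and 8.28, fell to E15.5 (-1.43, adjusted p = 1.46e-05) and rose to E18.5 (1.37, adjusted p = 6.07e-06). Inside the cell, Ctnnb1 (beta-catenin itself) varied less under the scaling used here, at 65.8, 74.1, 65.9 and 69.7, without a test. Its levels with all stages set to the same total were not worked out. That setting moved the median difference of all genes from E13.5 to E15.5 to -0.41, so Ctnnb1 is not called unchanged. Of 24 tested genes of cytoplasmic transduction, 11 fell and 2 rose from E11.5 to E13.5, beside 37.2% and 30.7% of all genes. Nkd1, a feedback inhibitor, fell (10.7 to 2.09, log2 difference -1.92, adjusted p = 7.01e-07), as did Dact3 (9.77 to 1.96, -1.86, adjusted p = 1.20e-05), and Dact2 rose (0.826 to 5.91, 1.92, adjusted p = 8.43e-07), all 3 being partners of Dishevelled.

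The nuclear cofactors of beta-catenin included 11 tested genes, of which 6 rose and 2 fell from E15.5 to E18.5, beside 38.5% and 29.7% of all genes. The Groucho corepressor Tle4 was at 6.73 at E11.5 and between 0.270 and 0.867 later, falling by 2.48 to E13.5 (adjusted p = 1.40e-06). Tle2 was at 2.28, 6.86, 5.75 and 11.3, and rose to E13.5 (1.26, adjusted p = 3.53e-06) and to E18.5 from E15.5 (0.86, adjusted p = 2.51e-05). Aes, a short relative of these corepressors, was at 134, 337, 472 and 486, without a test. In the planar polarity list 11 genes were tested. Scrib was the single one past the rule of size, at 9.44, 3.80, 5.89 and 2.41, and fell by 1.12 to E13.5 (adjusted p = 7.00e-06) and by 1.01 from E15.5 to E18.5 (adjusted p = 1.52e-05). Here too the E11.5 values are from a sample with the contents given above, whose part was not tested.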

How the data were processed

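The deposited values were mean FPKM per gene, 1 file per stage, per the file headers. Reads were aligned with HISAT2 2.0.5 to mm10, per the submitters' processing notes. No source names the counting tool, annotation, strand setting or number of libraries.

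Each deposited FPKM mean was multiplied by GENCODE M21 exon length and split into whole reads of 2 libraries. A split was kept where it met the printed value within 1.05 last printed places and at most 0.05 chance pairs were expected. Of the genes attempted, 96.5% to 96.7% were split. Another 542 to 793 genes per stage had too many reads for a split and were not attempted. They were not tested, so the limma shares of all genes leave out these abundant genes. Tcf7l2 and Fzd8 needed an exon length taken from the values (8739 and 3346 bases). Wnt8b was not split at E15.5. Libraries of 1 stage differed by 1.24 to 1.35 times counting error, and the floors cover counting error only. The floor was 3 reads over both libraries.

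Stages were scaled by median of ratios over 9884 genes. limma 3.58.1 (R 4.3.3, mean-variance trend) was run on log2(scaled FPKM + 1) of 8 libraries for 13589 of 14841 genes at 1 or more in any stage, with Benjamini-Hochberg adjustment over them. All 4 comparisons came from 1 fit. Tables and plots used Python 3.11.15, numpy 2.4.6, pandas 2.3.3 and matplotlib 3.10.9, and the scripts were tested on simulated data. Alternatives were a pseudocount of 0.1, other minimum levels and folds, no filter, no trend, no scaling, the same total in all stages, and each library left out.

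Members at 5 or more were described one by one. From each pathway list up to 3 genes with the largest difference past the rule of size were named, plus Ctnnb1, Porcn and Wls. The members and lists were chosen with earlier results of these data known. One marker gene of that choice is not reported here and is in no sum.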

Additional observations from a re-analysis of the deposited data

How the results depend on the processing

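No paired analysis was possible because the labels give each stage a single sample. Of the tested differences, 199 of 204 kept their direction and side of the threshold with no filter, 197 with a pseudocount of 0.1, 203 with no trend and 194 with no scaling. With each library left out, 1528 of 1632 did. No scaling means the deposited values as they were, whose depth term was not the estimated read total. That fit is therefore not read as one free of normalisation. Members counted as higher by limma ranged over these fits from 9 to 9, 4 to 7, 10 to 12 and 6 to 7 in the order E13.5 against E11.5, E15.5 against E13.5, E18.5 against E15.5 and E18.5 against E13.5, and those lower from 20 to 21, 6 to 11, 9 to 10 and 9 to 10. With no filter, 31 of 54 members tested were lower from E11.5 to E13.5, in a fit that called 39.0% of 29348 genes in either direction. The share of all genes that fell in that fit was not worked out, so nothing is read from this count.

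Setting all stages to the same total mattered most. It moved the median difference of all genes to -0.163, -0.41, 0.144 and -0.238 in the same order, and 149 of 200 differences kept direction and side. From E13.5 to E15.5 it turned Fzd3 to -0.27, Fzd9 to -0.37, Lgr4 to -0.07, Znrf3 to -0.15, Porcn to -0.37, Wls to -0.26 and Gpc4 to -0.23, and from E13.5 to E18.5 Lrp6 to -0.25. The E15.5 values lie above the all-gene median of -0.41, and that of Lrp6 lies below -0.238. Its limma counts were 2 higher and 20 lower at E15.5 against E13.5 and 17 lower at E18.5 against E13.5, of 38 members tested, where 68.2% and 64.3% of all genes were called in either direction. Those shares were not separated by direction, so nothing is read from these counts.

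The rule of size has few members and moved with its limits. The shares of all genes were not worked out at these other limits, so nothing about the set is read from the counts. At a minimum of 1 FPKM it took 5 higher and 14 lower at E13.5 against E11.5, 4 higher at E18.5 against E15.5 and 5 lower at E18.5 against E13.5. At a minimum of 10 it took 3 lower, 1 higher and 0 lower, and 1 higher at E13.5 against E11.5, E18.5 against E15.5 and E18.5 against E13.5. At 1.5-fold it took 2 higher at E13.5 against E11.5, 1 higher and 4 lower at E15.5 against E13.5, 3 lower at E18.5 against E15.5 and 5 lower at E18.5 against E13.5. A pseudocount of 0.1 gave 1 higher at E15.5 against E13.5 and 2 lower at E18.5 against E15.5. The same total gave 2 higher, 4 lower and 5 lower at E13.5 against E11.5, E15.5 against E13.5 and E18.5 against E13.5. The cause was not tested.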
